A study of Saccharomyces cerevisiae with 8 samples.

Results

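The NOP, UTP and RRP genes of Saccharomyces cerevisiae encode proteins that build ribosomes without being part of the finished particle. To see where Rap1, a DNA-binding activator of ribosomal protein genes that also caps telomeres, sat relative to these genes, all nuclear protein-coding genes of release R64 with a symbol of NOP, UTP or RRP followed directly by a number were taken. This gave 53 genes of 6002, of which 17 were NOP, 18 UTP and 18 RRP genes. Rap1 had been immunoprecipitated from formaldehyde cross-linked cultures grown in YPD, a rich glucose medium, for 16 h or for 14 d, with 2 biological repeats at each time, for sequencing of the DNA bound to it (ChIP-seq). Peaks, the stretches where immunoprecipitated DNA exceeded a matched input of sheared chromatin taken without antibody, were listed for each of the 4 ChIP libraries.

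All cultures were of JDY86, the MATa parent of the histone mutant library of the study, so that time in culture was the labelled difference between the groups. Its alleles were given as his3Δ200, trp1Δ63, leu2Δ0, met15Δ0, ura3Δ0, a marker printed as K2Δ0 and can1::MFA1pr-HIS3. The histone genes were altered too, with hht1-hhf1 replaced by NatMX4 and hht2-hhf2 by a synthetic H3-H4 cassette linked to URA3. The groups were bulk cultures, in which cells of different states at 14 d were not separated.

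Ribosomal RNA is cut, modified and folded in the nucleolus together with ribosomal proteins. The UTP proteins form most of the small-subunit processome, a large particle on the nascent pre-rRNA in which the U3 small nucleolar RNA guides the early cleavages. NOP1, NOP56 and NOP58 are proteins of the box C/D particles that methylate rRNA, NOP10 belongs to the box H/ACA particles that make pseudouridine, and many other NOP and RRP proteins act on the large subunit or are subunits of the exosome, an RNA-degrading complex. In yeast, the genes of ribosome assembly are transcribed together with those of ribosomal proteins when cells grow. Their promoters are best known for elements called PAC and RRPE, whereas most promoters of ribosomal protein genes carry Rap1 sites.

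The 4 lists differed in depth. They held 84 and 480 nuclear peaks in 16 h repeats 1 and 2, and 95 and 564 in 14 d repeats 1 and 2. The genome background pileup, the lowest local number of fragments in a list and so a relative measure of depth, was 0.414 and 8.87 for the 16 h repeats and 1.71 and 11.7 for those of 14 d. A promoter was taken as the 500 bp before a start codon, and a gene was counted when a peak overlapped it by at least 1 bp. Of 137 ribosomal protein genes, the known targets, 121 had such a peak in 16 h repeat 2 and 124 in 14 d repeat 2, against 25 and 13 in the repeat 1 lists. The repeat 1 lists therefore say little about a gene with no peak there.

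Promoters of NOP, UTP and RRP genes seldom had a Rap1 peak. In 16 h repeat 1, 0 of 53 had one, against 1.21% of the 5949 other nuclear protein-coding genes, and a count of 0 allows a share of up to 5.66% (taken as 3 counts of 53), or 6.72% by the exact 95% binomial interval used for the other counts. In 16 h repeat 2 it was 2 of 53 (3.77%, exact 95% binomial interval 0.460 to 12.98%), against 9.23% of other genes. In 14 d repeat 1 it was again 0 of 53, with the same limits, against 1.70% of other genes. In 14 d repeat 2 it was 3 of 53 (5.66%, 1.18 to 15.7%), against 11.5% of other genes. The share was below that of the other genes in each of the 4 lists. At the shares of the other genes, the 53 genes would have given 0.641, 4.89, 0.900 and 6.08 genes, and the share of the other genes lay inside the interval of the 53 in every list. The shortfall was thus not larger than counting error in any list, and these intervals cover counting error only.

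**Figure D1:**
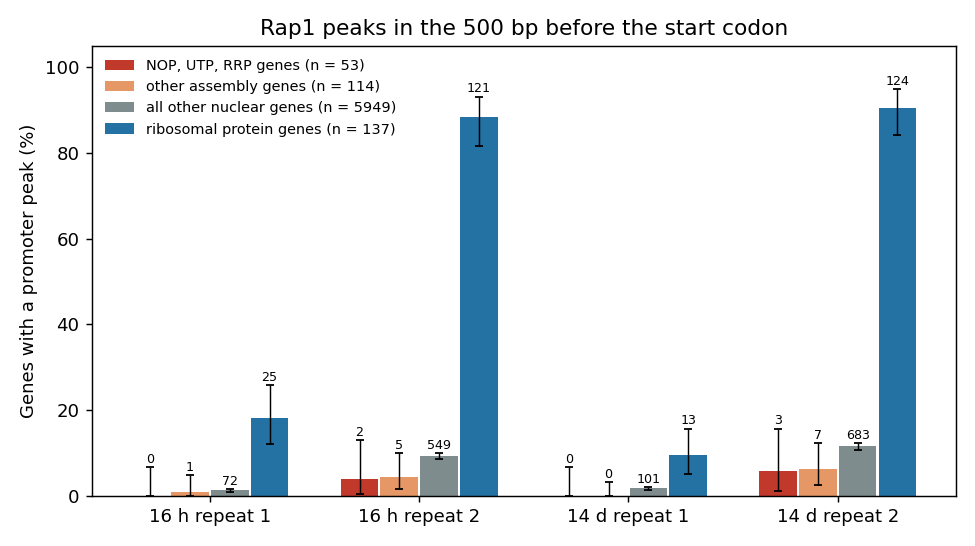
Percent of genes with a Rap1 peak in the 500 bp before the start codon, by ChIP library, for the 53 NOP, UTP and RRP genes, 114 other ribosome assembly genes, all 5949 other nuclear protein-coding genes (which include both other sets) and 137 ribosomal protein genes. Error bars are exact 95% binomial intervals and the numbers above them are counts of genes: the NOP, UTP and RRP bars reach 0, 2, 0 and 3 genes.

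Part of the background came from the ribosomal protein genes themselves. Without them, 0.809%, 7.36%, 1.51% and 9.62% of the other 5812 genes had a promoter peak in 16 h repeats 1 and 2 and 14 d repeats 1 and 2. Leaving out genes within 20 kb of a chromosome end as well, where none of the 53 genes lay, gave 0.736%, 7.36%, 1.49% and 9.39%. The gene of the 53 that was closest to a chromosome end was NOP8, a factor of the large subunit, with its middle 53.8 kb away.

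The study compared Rap1 occupancy in cultures of either age. The share of NOP, UTP and RRP genes with a promoter peak averaged 1.89% ± 2.67 (SD, n = 2) over the 16 h cultures and 2.83% ± 4.00 (SD, n = 2) over the 14 d cultures. The later time was thus higher by 0.943 percentage points, less than both SDs, each of which spans a shallow and a deep list. The 14 d list was the deeper in both repeats (background pileup 1.71 against 0.414, and 11.7 against 8.87). Time and depth can therefore not be told apart here. A two-sided exact permutation test gave p = 1, where 0.333 is the smallest value possible with 2 against 2 libraries. Repeat 1 contributed a difference of 0 and repeat 2 of 1.89 points, which is 1 gene, UTP6. It changed sign without 16 h repeat 1 (-0.943 points) and without 14 d repeat 2 (-1.89 points). The other genes moved by 0.487 points in repeat 1 and 2.25 points in repeat 2.

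By role, with each gene put in 1 class only, the genes with a promoter peak were all in the class of the small-subunit processome. There 3 of 20 had one in at least 1 list. The classes are not sharp, as RRP9 of the U3 particle was put with the small nucleolar particles. None of the 5 proteins of small nucleolar particles, none of 7 other factors of the small subunit, none of 14 factors of the large subunit and none of 7 exosome subunits did. By name these were 3 of 18 UTP genes, 0 of 17 NOP genes and 0 of 18 RRP genes. The 3 genes were UTP4, UTP15 and UTP6, and 50 of the 53 genes had no promoter peak in any list. Of the other genes, 12.4% had a promoter peak in at least 1 list. At that share classes this small would hold few such genes or none, so the peaks were not shown to be particular to the processome.

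UTP4 (YDR324C) encodes a subunit of UtpA, the subcomplex that joins the nascent pre-rRNA first. It lies on the minus strand of chromosome IV at 1114433 to 1116763. A peak was listed before it at 1116807 to 1117111 in 16 h repeat 2 and at 1116782 to 1117199 in 14 d repeat 2. Both repeat 2 lists thus had the peak in nearly the same place, and neither repeat 1 list had a summit within 50 kb. The fold enrichment, by which the fragments piled up at the summit exceed the local background, was 6.38 at 16 h and 7.54 at 14 d. The summits held 62 and 95 fragments. These were middling peaks, ranked 284 of 480 and 295 of 564 by fold, with list medians of 7.76 and 8.05. The summit lay 222 bp before the UTP4 start codon at 16 h and 233 bp before it at 14 d.

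The gene next to UTP4 on that side was YCG1, a condensin subunit gene that is transcribed the other way, with 363 bp between the start codons. Each UTP4 peak also lay in the 500 bp before YCG1. The summits were 141 and 130 bp from the YCG1 start codon, and so nearer to it than to UTP4. Which of the genes the bound Rap1 acts on was not tested.

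UTP15 (YMR093W), also of UtpA, lies on the plus strand of chromosome XIII at 454015 to 455556. Peaks before it were at 453561 to 453773 in 16 h repeat 2 and at 453590 to 453848 in 14 d repeat 2, and none was near it in either repeat 1 list. These were weak peaks. Their fold enrichment was 4.22 at 16 h, rank 376 of 480, and 3.38 at 14 d, rank 466 of 564, with 42 fragments at the summit in both lists. The summit was 363 bp before the start codon at 16 h and 343 bp at 14 d. The neighbour was again divergent: AIP1, which encodes an actin-disassembly factor, starts 536 bp away. The summits lay 173 and 193 bp from the AIP1 start codon, nearer than to UTP15, and the peak was in the promoter of both genes.

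UTP6 (YDR449C), a subunit of the UtpB subcomplex, lies on the minus strand of chromosome IV at 1357580 to 1358902. It was counted in 14 d repeat 2 only, where a peak at 1359370 to 1359844 reached 33 bp into its 500 bp window. The summit of this peak was outside the window, 704 bp before the start codon. In both 16 h lists a peak was present in the same place but fell just short of the window. Its near edge was 547 bp from the start codon in 16 h repeat 1 and 546 bp in 16 h repeat 2, against 468 bp in 14 d repeat 2. The summits, at 719, 717 and 704 bp, differed by less than 20 bp. In 14 d repeat 1 no summit lay within 100 kb. The count of UTP6 at 14 d but not at 16 h therefore came from the edge of a wider peak, 475 bp long, and not from a summit in a new place.

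This peak lay before RPS18A, a ribosomal protein gene of the small subunit that is divergent from UTP6, with its start codon 1021 bp away. The fold enrichment was 6.39 in 16 h repeat 1, 19.1 in 16 h repeat 2 and 20.7 in 14 d repeat 2, with 11, 281 and 262 fragments at the summit. It was thus well above the list median in the repeat 2 lists and below the median of 7.07 in 16 h repeat 1. The summit was 302, 304 and 317 bp from the RPS18A start codon, less than the distance to UTP6 in each of these lists.

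**Figure D2:**
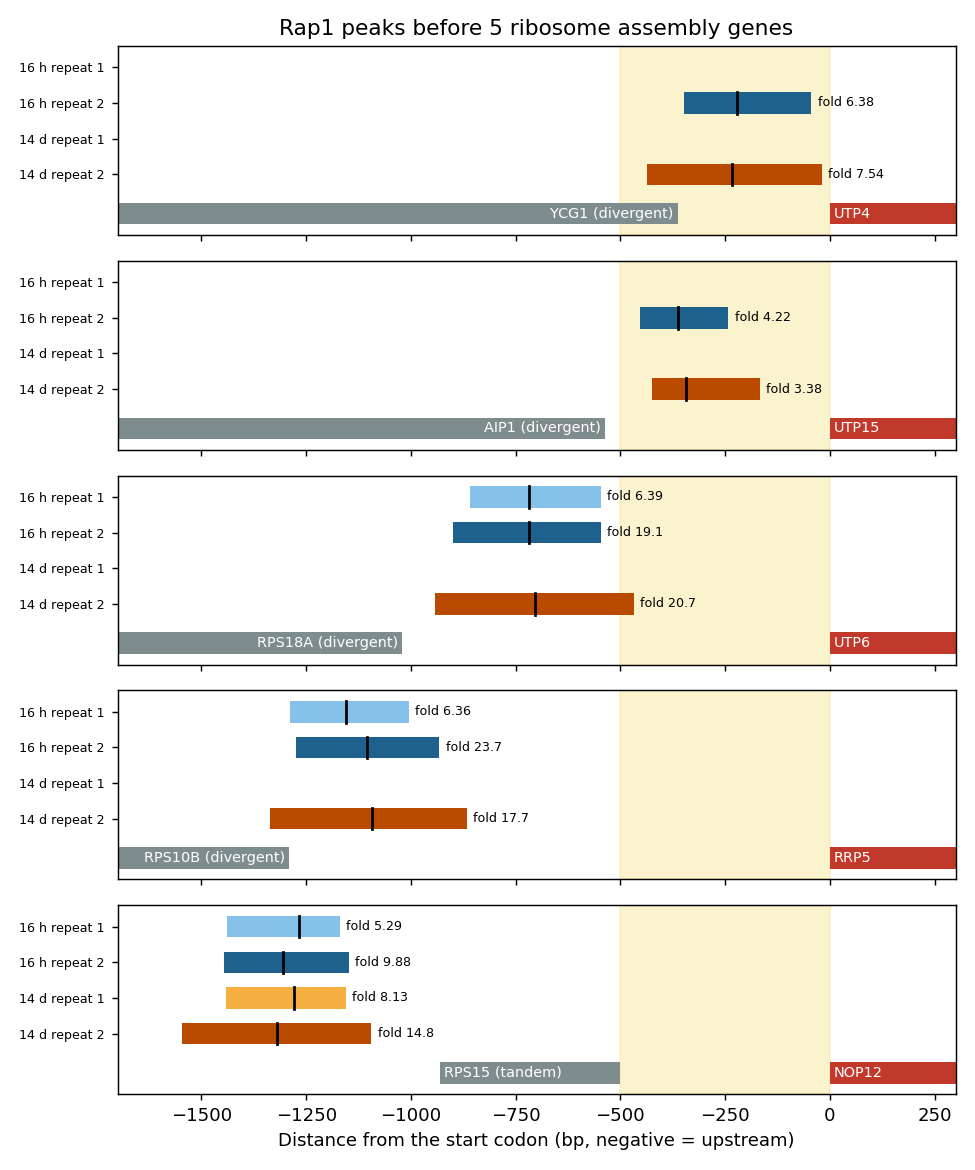
Peaks (bars), summits (black ticks) and fold enrichment in the 4 lists before UTP4, UTP15, UTP6, RRP5 and NOP12, by distance from the start codon in bp, with the 500 bp promoter shaded, the named gene in red and its upstream neighbour in grey. The UTP4 and UTP15 peaks fall between divergent genes in the 2 repeat 2 lists, and the peaks beside RPS18A, RPS10B and RPS15 lie beyond or at the edge of the shaded window.

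All of the bound genes thus had a divergent neighbour, a peak that was also in the promoter of that neighbour, and a summit nearer to the start codon of the neighbour. A divergent neighbour at any distance was found for 25 of the 53 (47.2%) and for 51.3% of the other genes, and one with start codons within 1000 bp for 22 (41.5%) and 42.5%. Of the 22, 2 (9.09%) had a promoter peak in each repeat 2 list, against 10.1% at 16 h and 11.1% at 14 d of other such genes, and none had one in the repeat 1 lists. With start codons within 500 bp the shares were 5.26% in both repeat 2 lists, against 4.33% at 16 h and 5.29% at 14 d. The order at 16 h thus turned, but the 5.26% was UTP4 alone, as UTP15 lies 536 bp from its neighbour. With any distance, a limit dropped after seeing the data so as to include UTP6, the shares were 8% at 16 h and 12% at 14 d, against 10.9% and 13.3%. The neighbour itself had a promoter peak for 4 of the 25 genes (16%) in each repeat 2 list, against 10.9% and 13.3% elsewhere. In 16 h repeat 1 this was so for 2 of the 25 (8%, against 1.41%), which were RRP5 and UTP6 with their ribosomal protein neighbours, and in 14 d repeat 1 for none (against 1.93%). These differences were not tested. Of the 28 genes with a tandem neighbour, which is transcribed in the same direction, none had a promoter peak in any list, against 7.35% and 9.60% of other such genes in the repeat 2 lists. Among other genes with a divergent neighbour and a promoter peak, the summit was nearer to the neighbour in 41.6% (139 of 334) in 16 h repeat 2 and 42.2% (171 of 405) in 14 d repeat 2. For these other genes the peak was also in the promoter of the neighbour in 76.6% (256 of 334) and 77.3% (313 of 405). Where start codons lie well within 1000 bp of each other, the 500 bp windows overlap, which makes a shared peak likely by construction. The 2 of 2 and 3 of 3 NOP, UTP and RRP genes with both traits are too few to be set apart from these shares.

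A ribosomal protein gene was the upstream neighbour of 3 of the 53 genes. UTP6 was described above. RRP5, which acts in the assembly of both subunits, faces RPS10B at a start-to-start distance of 1291 bp. Peaks between them had fold enrichments of 6.36 and 23.7 in the 16 h repeats and 17.7 in 14 d repeat 2, and none was there in 14 d repeat 1. Their summits were 1154, 1104 and 1092 bp before RRP5 but 137, 187 and 199 bp from the RPS10B start codon. RRP5 was therefore not counted in any list, and RPS10B was counted in 3. NOP12, a factor of the large subunit, lies behind RPS15 in tandem. It was the only gene of the 53 with a peak within 2 kb in all 4 lists, with fold enrichments of 5.29 and 9.88 at 16 h and 8.13 and 14.8 at 14 d. The summits were between 1267 and 1319 bp before the NOP12 start codon, on the far side of RPS15, in the space that RPS15 shares with RPP2A.

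In the rest of the genome, a promoter peak in such pairs was more frequent where the start codons were closer. This follows in part from the window used. With start codons over 1000 bp apart, the 500 bp windows of a pair do not overlap. Of 66 other genes, not themselves ribosomal protein genes, with a divergent ribosomal protein neighbour, 49 had start codons within 1000 bp and 17 further apart. A promoter peak was listed for 45 of the 49 (91.8%) in each repeat 2 list. Of the 17, it was listed for 4 (23.5%) in 16 h repeat 2 and 5 (29.4%) in 14 d repeat 2. UTP6 and RRP5, at 1021 and 1291 bp, were both of the distant kind, so that no close pair was found among the 53 genes.

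To describe the genes without a window, the distance from each start codon to the nearest summit on either side was measured. The median was 57.1 kb in 16 h repeat 1 and 61.2 kb in 14 d repeat 1, against 53.3 and 49.4 kb for the other genes. In the deeper lists it was 8.99 kb in 16 h repeat 2 and 8.65 kb in 14 d repeat 2, against 8.33 and 7.72 kb. The median of the NOP, UTP and RRP genes was the larger in each list, but the upper quartile was the smaller in each list (97.6, 16.1, 80.4 and 14.9 kb in 16 h repeats 1 and 2 and 14 d repeats 1 and 2, against 108.3, 17.0, 98.8 and 16.7 kb), and neither difference was tested. For ribosomal protein genes the median was 0.344 and 0.347 kb in the repeat 2 lists.

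**Figure D3:**
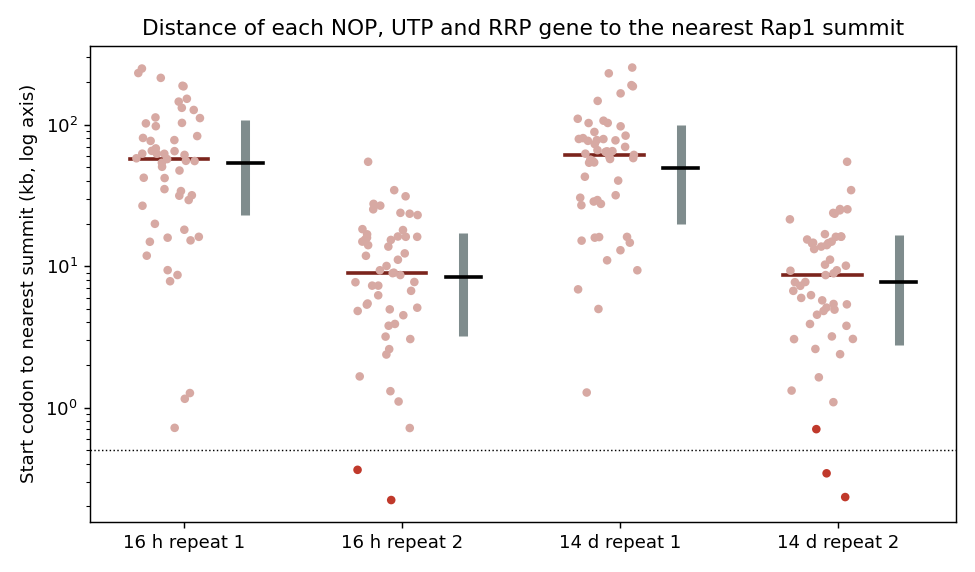
Distance in kb on a log axis from the start codon of each of the 53 NOP, UTP and RRP genes (points, dark red where the promoter had a peak) to the nearest Rap1 summit in each list. Dark red lines are medians of the 53 genes, black lines and grey bars the median and quartiles of the 5949 other genes, and the dotted line marks 500 bp: 2 points in 16 h repeat 2 and 2 in 14 d repeat 2 fall below it.

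The summits closest to the 50 genes with no promoter peak were taken over all lists. After RRP5 and NOP12 came RRP4, an exosome cap subunit gene, with a summit at 1661 bp in 16 h repeat 2 and 1637 bp in 14 d repeat 2. The weak peaks there, of fold 3.09 and 4.04, were nearest to PCL5. UTP11, a processome factor, followed with summits at 2372 and 2385 bp, and NOP53, a factor of the large subunit, with summits at 2590 and 2597 bp in the same 2 lists. Each of these summits was further away than the end of the neighbouring gene that faces the start codon. At the other extreme was UTP13 of UtpB, whose nearest summit in any list was 54.7 kb away. Within 1000 bp of the start codon a summit was listed for 3 of the 53 genes (5.66%) against 15.3% of other genes. Within 5000 bp this was so for 16 (30.2%) against 41.4%, and within 10000 bp for 32 (60.4%) against 62.7%. The other genes here include the ribosomal protein genes, and some of the 53 genes share a nearest summit, such as RRP3, RRP4 and NOP10. These differences were not tested.

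The core proteins of small nucleolar particles had no promoter peak in any list. In 16 h repeat 2, summits lay 15.9 kb from NOP1, the methyltransferase of the box C/D particles, 23.8 kb from NOP56, 3.18 kb from NOP58 and 5.35 kb from NOP10, and in 14 d repeat 2 10.2, 23.8, 3.19 and 5.37 kb. For RRP9, a protein of the U3 particle, the distance was 7.70 kb in both. Only the NOP1 distance moved by more than 1 kb between the deeper lists, where a further peak was listed at 14 d.

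Nor did peaks lie over these genes or behind them. No peak overlapped the coding sequence of any of the 53 genes in any list, against 0.202% and 2.45% of other genes at 16 h and 0.622% and 4.56% at 14 d. In the 500 bp after the stop codon there was likewise none, against 0.454% and 3.77% of other genes at 16 h and 0.689% and 5.14% at 14 d. A count of 0 of 53 allows up to 5.66% (3 counts of 53), which is above each of these shares, so an absence of this size was not resolved. The 3 promoters described above thus held every peak found over the promoters, coding sequences and 3′ flanks of the 53 genes.

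The upstream space of the NOP, UTP and RRP genes was compact. Its median was 370 bp (quartiles 298 and 525 bp) against 449 bp (280 and 733 bp) for other genes, and it was shorter than 500 bp in 38 of the 53 (71.7%) against 56.1%. For such genes the promoter window reached into the gene next door. With the window ended at that gene, the same counts of 0, 2, 0 and 3 genes were found. With a window of 250 bp UTP4 and UTP15 remained in both repeat 2 lists, and with 1000 bp UTP6 was counted in 3 lists and RRP5 in both repeat 2 lists, which gave 1, 4, 0 and 4 genes.

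**Figure D4:**
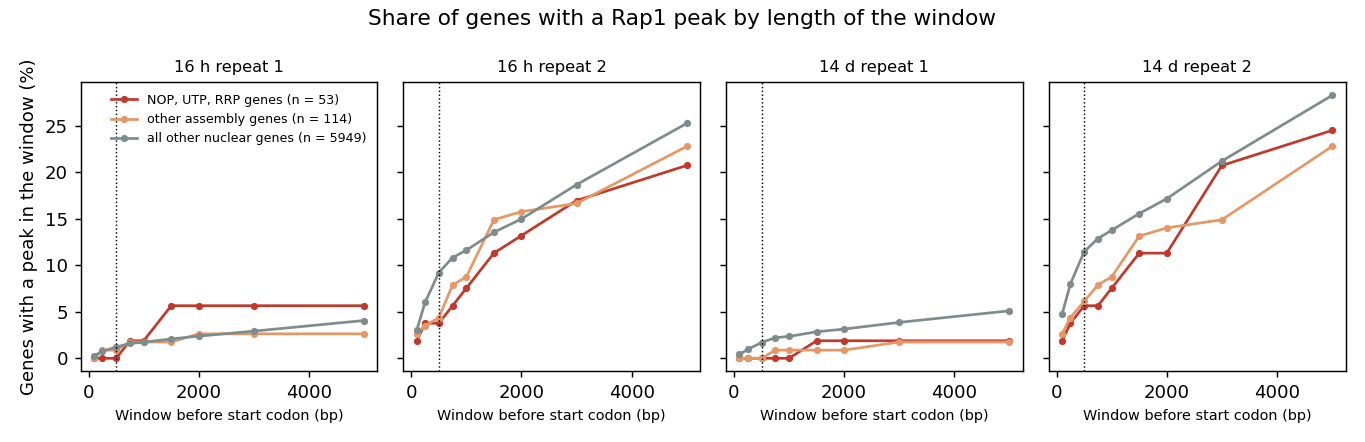
Percent of genes with a Rap1 peak against the length of the window before the start codon (100 to 5000 bp) in each list, for the 53 NOP, UTP and RRP genes, 114 other ribosome assembly genes and all 5949 other nuclear protein-coding genes; the dotted line marks 500 bp. In the repeat 2 lists the red line stays below the grey line at every window drawn, and in 16 h repeat 1 it lies above it from 750 bp on, where it rests on 1 to 3 genes.

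The other genes of the pathway gave similar shares. Of 114 further genes for ribosome assembly, a promoter peak was listed for 1 (0.877%) in 16 h repeat 1, 5 (4.39%) in 16 h repeat 2, 0 in 14 d repeat 1 and 7 (6.14%) in 14 d repeat 2. In each list the exact 95% interval of these shares (1.44 to 9.94% in 16 h repeat 2 and 2.50 to 12.2% in 14 d repeat 2) held the share of all other genes.

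Some of these peaks did lie nearest to the assembly gene itself. NSR1, which encodes the nucleolin-like protein of yeast, had a peak in 3 lists, with fold enrichments of 4.24 and 10.2 at 16 h and 11.3 in 14 d repeat 2. The peak in 16 h repeat 1 was weak, with 5 fragments at the summit and rank 76 of 84 by fold. The NSR1 summits lay 334, 284 and 274 bp before its start codon, and its neighbour RTS3 is in tandem. SSF2, a factor of the large subunit, had summits 411 and 410 bp before it with folds of 6.79 and 6.68 in the repeat 2 lists, and BUD22, a factor of the small subunit, had summits at 117 and 154 bp with folds of 6.18 and 7.62. TSR1, a factor of the small subunit, shared its peak with the divergent RPS29B. There the summit was 188 and 189 bp from TSR1 and 633 and 632 bp from RPS29B, with folds of 14.1 and 15.9. NOB1, the nuclease that finishes the small-subunit rRNA, had a peak of fold 5.37 and 11.0 whose summit was nearer to its divergent neighbour SGT1, at 130 and 153 bp. HAS1 and PXR1 were counted in 14 d repeat 2 alone, by peaks with summits 687 and 739 bp away that were nearer to TDA1 and YOR1. UTP4, UTP15 and UTP6 were unlike NSR1, SSF2, BUD22 and TSR1 in that none of their summits was nearest to their own start codon. In this they were like NOB1, HAS1 and PXR1.

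RNA polymerase I transcribes the rRNA precursor. Of its 7 subunit genes listed, 0, 3, 0 and 3 had a promoter peak in 16 h repeats 1 and 2 and 14 d repeats 1 and 2. This was 42.9% in each repeat 2 list (9.90 to 81.6%), against 9.23% of other genes at 16 h and 11.5% at 14 d. The interval held the 14 d share of the other genes but not that of 16 h, and no difference was tested. RPA34 and RPA43 were in both repeat 2 lists, with folds of 2.82 and 3.85 at 16 h and 3.30 and 2.83 at 14 d. These peaks ranked 454 and 394 of 480 and 475 and 513 of 564 by fold, in the lower part of the lists. The other call at 16 h was RPA14, with a fold of 2.64, rank 463 of 480 and a −log10 q of 4.48. That is under the −log10 q of 5 used as an alternative. At 14 d the other call was RPA190, through the peak of the divergent RPA43. The interval at 14 d thus treats a shared peak as separate genes.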

How the data were processed

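The authors filtered reads, mapped them to R64 with Bowtie2 and ran MACS2 for narrow peaks with the input of each culture as control, with Trim Galore also named in the submitters' processing notes. Settings and versions are not given in the sources used here. Peak names of 14 d repeat 2 mention a merge, so runs may have been pooled. The authors deposited, per peak, positions, a score (10 times the −log10 q, truncated), the fold enrichment (a ratio), the −log10 p and q, and the summit offset. Positions are given here counted from 1, after conversion from the deposited peak starts. The 4 input libraries entered through the peak calling only.

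Genes came from a RefSeq table of R64 (6477 entries) and strands from systematic names. Mitochondrial peaks (3 and 14 in the repeat 1 lists) were left out. Summit pileups were solved from fold and −log10 p, assuming that the ChIP pileup was not scaled down. Whole-number solutions met both within a relative tolerance of 0.0001 for every peak tried. The upstream neighbour was the nearest protein-coding gene before the start codon. Peak overlap was tested on simulated data.

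Genes were named by a rule: those with a promoter peak, the 5 without one nearest to a summit, the neighbours of these, and genes of the pathway list with peaks in 2 or more lists. UTP13, the 5 small nucleolar particle genes, NOP8, HAS1, PXR1, RPA14 and RPA190 were named after their values were seen. The members and lists were chosen with earlier results of these data known, so shares are set beside those of other genes with no enrichment test. Alternatives were other windows, summits in place of overlap, and leaving out each library. Lists were also reduced to their 84 peaks of highest fold or to a −log10 q of 5 or more. The labels call the repeats biological. Python 3.11.15, pandas 2.3.3 and scipy 1.17.1 were used. Promoter sequences and motifs were not analysed here.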

Additional observations from a re-analysis of the deposited data

How the results depend on the processing

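UTP4, UTP15 and UTP6 were counted with the window ended at the upstream gene and with a −log10 q of at least 5. With summits in place of overlap, with 250 bp, and without 14 d repeat 2, 2 genes were left (without any library, 2 to 3), and 4 with 1000 bp. Lists reduced to their 84 peaks of highest fold left none. The shares in the repeat 2 lists became 0% and 0% for the 53 genes, 0% and 0% for the other assembly genes, and 1.65% and 1.98% for all other genes. A count of 0 of 53 allows up to 5.66% (3 counts of 53), which is above these shares, so this absence was not resolved. The median distances became 72966 and 76905 bp for the 53 genes and 51531 and 56840 bp for other genes, since fewer peaks remain by construction. With 1000 bp, the shares in 16 h repeat 2 became 7.55% for the 53 genes and 8.77% for the other assembly genes, and the difference between times changed sign (-0.943 points). Leaving out a replicate gave differences from -1.89 to 3.77 points, reversed without 16 h replicate 1 (-0.943) and without 14 d replicate 2 (-1.89). The cause was not tested. A replicate block on the repeat number left the difference the same by construction (0.943 points), and with 2 pairs no p under 0.5 is possible. Promoter calls of same-numbered repeats deviated together (r = 0.661 across 6002 genes, which are not independent), but the labels tie no number to a shared culture or day. Repeat 2 was the deeper list at both times, so this r cannot tell pairing from depth. With the 14 genes of an older NOP, UTP or RRP name added, which was decided with the data in view, the shares in the repeat 2 lists were 4.48% and 4.48%. Of 177 recomputed values, 161 stayed within the spread of the repeats or kept their direction. This was a loose criterion, as that spread runs from a shallow to a deep list. For the other genes it was an SD of 5.67 points at 16 h and 6.92 points at 14 d. Some values could not move, such as the replicate block and, for the 53 genes, the limit to named genes. A difference between times of 0 was counted as kept. The motif comparison and its alternative were not run, as promoter sequences were not used here. In the repeat 1 lists most ribosomal protein genes had no peak either, so a missing peak there says little. The part of depth in this was not tested.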
